A study of Mus musculus with 4 samples.

Results

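A set of 8 epithelial ion transport genes was followed in the endometrium, the lining of the mouse uterus. They were chosen by symbol: Scnn1a, Scnn1b and Scnn1g encode the subunits of the epithelial sodium channel, Cftr a chloride channel, and Trpv6, S100g, Calb1 and Atp2b1 the steps of calcium transport across an epithelial cell. All 8 were found, each once, among 28545 genes listed per library. Polyadenylated RNA was sequenced from 4 libraries of mice at proestrus, the stage of the cycle that leads up to ovulation. The labels give 2 libraries titled SMAD7 Cre+/- and marked CKO, and 2 titled SMAD7fl/fl and marked blank. Both groups carry a Smad7 gene with loxP sites, made by injecting a guide RNA, a donor vector and Cas9 mRNA into fertilized eggs, and the first group carries Cre recombinase in addition. The promoter that drives Cre, the age of the mice and the number of mice per library are not stated in the labels. Since separate animals are not stated either, p-values reflect library-to-library spread, and part of it may be technical.

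The surface of the uterine cavity is kept moist by its epithelium, which secretes chloride through CFTR, with water following, and takes up sodium through the epithelial sodium channel, which draws water back. The balance of secretion and absorption sets how much fluid lies in the cavity, and in the rodent uterus estrogen is known to favour CFTR and progesterone the sodium channel. Calcium enters an epithelial cell through TRPV6, is carried by the calbindins, S100G (calbindin-D9k) and CALB1 (calbindin-D28k), and leaves through the plasma membrane pump ATP2B1. S100g is a classical estrogen-induced gene of the rodent uterus.

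Total counts were 19830568 and 17444368 in the libraries labelled Cre, against 22950532 and 18193504 in those labelled floxed. Smad7, the gene to be deleted, was higher in the libraries labelled Cre, at 49.9 and 33.9 FPKM, against 7.79 and 7.81 FPKM in those labelled floxed, so it goes against the labels, and each direction below is that of the labelled libraries, not of a verified loss of Smad7. FPKM is the read count per kilobase of gene and per 1000000 counts of the library. The libraries labelled Cre varied less between themselves (biological coefficient of variation 0.163) than those labelled floxed (0.403), and the second floxed library differed from the first in several results below. Defining epithelial markers were present in every library: Epcam stood at 110 and 112 FPKM in the libraries labelled Cre, against 120 and 165 FPKM in those labelled floxed, and none of the 15 epithelial markers was at 0 in any library.

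Of the 8 transport genes, 7 had a mean of at least 1 FPKM over the 4 libraries and entered the test across 13513 genes, and Scnn1g did not. None passed at an adjusted p under 0.05 in edgeR's quasi-likelihood test with Benjamini-Hochberg adjustment, where 0% of all genes did. With an unadjusted p below 0.05, Cftr was higher in the libraries labelled Cre, as were 7.3% of all genes tested, and Scnn1b and Calb1 were lower, as were 6.58% of all genes tested. In the same 3 genes the groups did not overlap, and in the other 4 they did. Over all genes tested, 24.7% did not overlap with the libraries labelled Cre higher and 23.6% with them lower, so 1 and 2 of 7 lie near the background. DESeq2, tried as an alternative on the same counts, called Cftr higher (adjusted p 0.0232) and Scnn1b lower (adjusted p 0.00446), in a test that called 3.24% of all genes higher and 3% lower. The median log2 fold change (libraries labelled Cre over those labelled floxed) of the 7 genes was -0.68, and that of all genes tested was -0.03.

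**Figure D1:**
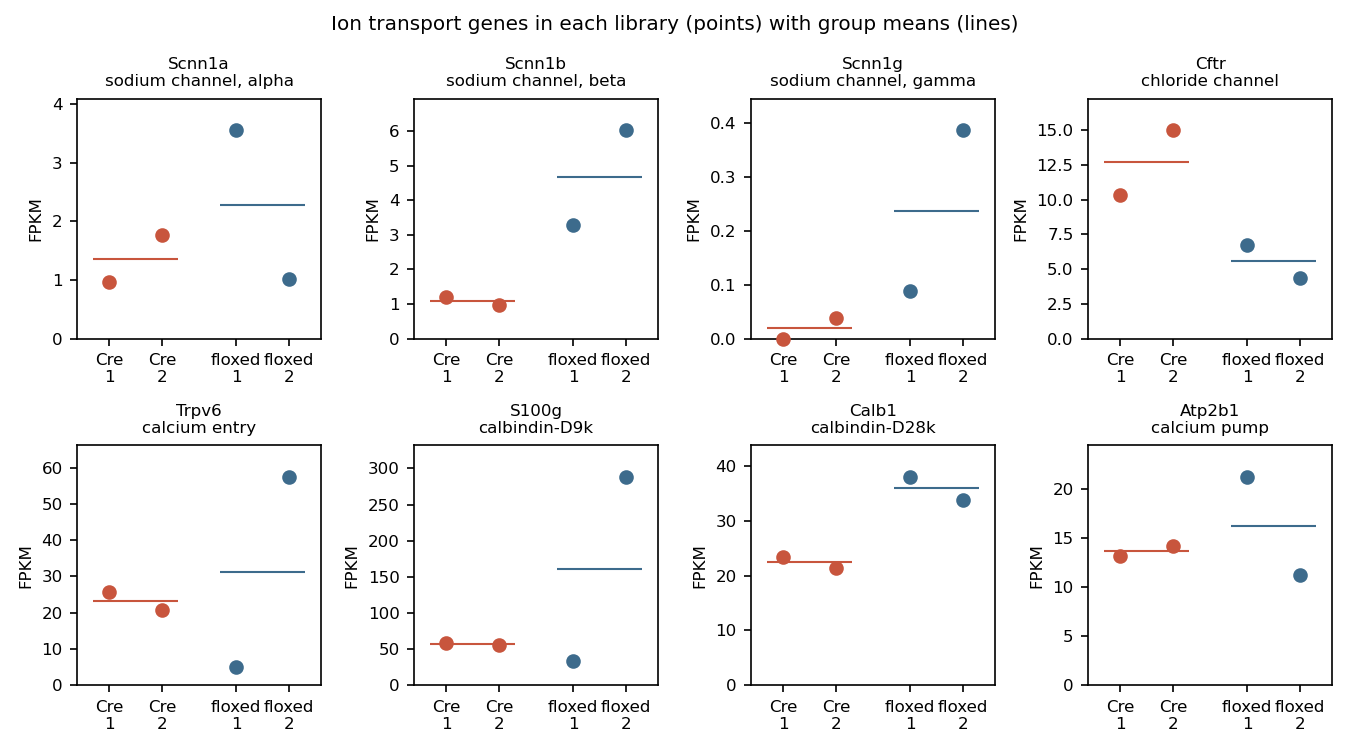
FPKM of the 8 ion transport genes in each library, with a linear axis from 0 in each panel; points are libraries, lines are group means, and the libraries labelled Cre stand on the left. Cftr, Scnn1b and Calb1 separate the groups, as does Scnn1g, which was not tested and had at most 21 counts in a library. Over all genes tested, 24.7% separate with the libraries labelled Cre higher and 23.6% with them lower. The libraries labelled floxed lie on either side of those labelled Cre for Trpv6, S100g and Atp2b1.

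Of the sodium channel subunits, beta was the one that separated the groups most clearly. Scnn1b, which encodes the beta subunit, stood at 1.21 and 0.980 FPKM in the libraries labelled Cre, against 3.29 and 6.03 FPKM in those labelled floxed. These values rest on 63 and 45 counts in the libraries labelled Cre, against 199 and 289 in those labelled floxed. Both libraries labelled Cre were low and close to each other, and the floxed libraries differed from each other by a factor of 1.83. Scnn1b averaged 1.09 ± 0.160 FPKM in the libraries labelled Cre and 4.66 ± 1.94 FPKM in those labelled floxed (SD, n = 2 each), and its log2 fold change was -2.10 ± 0.47 (SE; edgeR adjusted p 0.178). It remained negative in all 11 other settings that gave a value, from -2.51 to -1.39. Leaving out a library could not turn it, since the groups did not overlap. It passed with DESeq2, which called 843 of 13513 genes, and with no filter, where 1928 of 27379 genes passed. It did not pass in the other settings that kept all 4 libraries. Its log2 fold change was -2.51 and -1.55 without the first and the second floxed library, and -2.27 and -1.96 without either library labelled Cre. With 1 library left in a group, that library is assumed to vary like the other pair, so effect sizes alone are given here. In bulk tissue, fewer cells of a type and less RNA per cell cannot be told apart.

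Scnn1a encodes the alpha subunit, without which the channel conducts little. It stood at 0.964 and 1.76 FPKM in the libraries labelled Cre, against 3.55 and 1.01 FPKM in those labelled floxed. A single library, the first floxed one, was high, and the groups overlapped. The log2 fold change was -0.73 ± 0.67 (SE; edgeR adjusted p 0.655), and it was 0.38 without that library and -1.35 without the other floxed library. Its direction therefore depended on which floxed library was compared.

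Scnn1g encodes the gamma subunit, which is processed by proteases when the channel is activated. It was the least abundant of the 8 genes, with 0 and 2 counts in the libraries labelled Cre, against 6 and 21 in those labelled floxed. The ratio of Cre to floxed was 0.0820, with a 95% exact binomial interval from 0.00945 to 0.326 that covers counting error only. At this depth 3 counts correspond to 0.131 to 0.172 CPM (counts per 1000000 of the library's total), and both libraries labelled Cre lay below that floor, the first floxed library close to it and the second floxed library above it. Without the second floxed library the ratio was 0.212 and its interval, from 0.0209 to 1.19, included 1.

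Scnn1b and Scnn1g lie close together on chromosome 7, with 1 other annotated gene between them. On GRCm38, Scnn1g (ENSMUSG00000000216) lies from 121734479 to 121768475 and Scnn1b (ENSMUSG00000030873) from 121865038 to 121918514, both on the plus strand, 96562 bases apart. Scnn1a (ENSMUSG00000030340) is at 125320659 to 125344943 of chromosome 6, plus strand. In GENCODE mouse release 21, 0% of the exon bases of these 3 genes are shared with exons of another gene.

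The make-up of the channel's transcripts varied more inside the floxed pair than between the group means. Per length, Scnn1a made up 44.4% and 63.4% of the summed FPKM of the subunits in the libraries labelled Cre, against 51.2% and 13.6% in those labelled floxed. Scnn1b made up 55.6% and 35.2% in the libraries labelled Cre, against 47.5% and 81.2% in those labelled floxed. Scnn1g was at most 1.38% in the libraries labelled Cre and at most 5.19% in those labelled floxed. Inside the floxed pair the sum of the 3 subunits varied less than any of them, and inside the Cre pair it varied more than Scnn1b. The sum stood at 2.17 and 2.78 FPKM in the libraries labelled Cre, against 6.93 and 7.43 FPKM in those labelled floxed.

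Cftr differed in the other direction from the sodium channel. It stood at 10.4 and 15.0 FPKM in the libraries labelled Cre, against 6.76 and 4.35 FPKM in those labelled floxed. It had 1597 and 2033 counts in the libraries labelled Cre, against 1205 and 614 in those labelled floxed. Every library labelled Cre was above every floxed library. Cftr averaged 12.7 ± 3.28 FPKM in the libraries labelled Cre and 5.55 ± 1.71 FPKM in those labelled floxed (SD, n = 2 each). Its log2 fold change was 1.20 ± 0.30 (SE; edgeR adjusted p 0.219), and it stayed positive in all 12 other settings, from 0.91 to 1.49. Since its groups did not overlap, leaving out a library could not make it negative. Of the settings that kept all libraries, it passed with DESeq2 and with no filter only, as Scnn1b did. Cftr (ENSMUSG00000041301) is at 18170687 to 18322768 of chromosome 6, plus strand, and 1.66% of its exon bases overlap the antisense gene Gm15592. Whether counting used strand is not stated, so reads there cannot be assigned to either.

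Within each library, Cftr was set against the summed sodium channel subunits. The ratio of their FPKM was 4.78 and 5.40 in the libraries labelled Cre, against 0.975 and 0.585 in those labelled floxed. Per length, Cftr exceeded the summed subunits in both libraries labelled Cre and in neither floxed library. The mean ratio was 6.52 times as high in the libraries labelled Cre, and 5.22 to 8.70 times when 1 library was left out. This ratio was chosen after the values were seen and is given as a description.

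**Figure D2:**
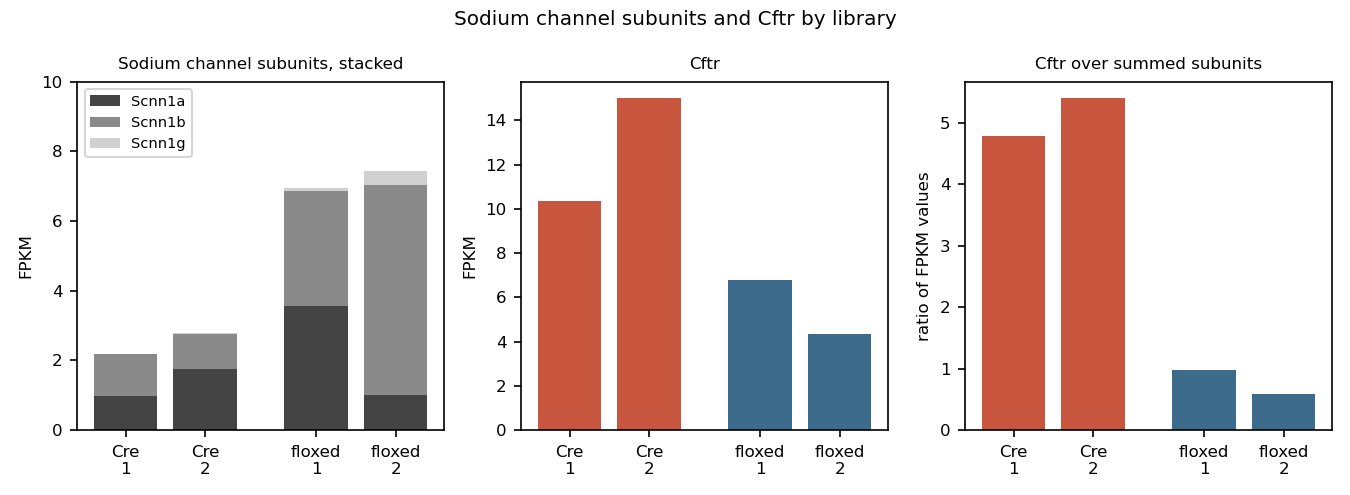
Summed FPKM of the sodium channel subunits (left, stacked grey bars), Cftr FPKM (middle) and their ratio (right) in each library, with bars from 0 and the libraries labelled Cre on the left of each panel. The summed subunits were 2.17 and 2.78 FPKM in the libraries labelled Cre, against 6.93 and 7.43 FPKM in those labelled floxed, while Cftr ran in the opposite direction.

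The sequences before the starts of Scnn1b and Cftr are given because these genes differed in opposite directions. Each shows 250 bases that end just before the RefSeq start on GRCm38.p6, 5′ to 3′ on the gene's strand, here plus for both: chr7:121864788-121865037 for Scnn1b and chr6:18170437-18170686 for Cftr. Capitals mark matches on either strand to AGGTCA, the half-site of many nuclear receptors, or to CAGAC, the SMAD box.
Scnn1b: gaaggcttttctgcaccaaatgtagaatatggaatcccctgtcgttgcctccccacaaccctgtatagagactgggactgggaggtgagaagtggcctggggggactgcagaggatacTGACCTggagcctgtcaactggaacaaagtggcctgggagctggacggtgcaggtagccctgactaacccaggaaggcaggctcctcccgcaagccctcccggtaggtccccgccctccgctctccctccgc
Cftr: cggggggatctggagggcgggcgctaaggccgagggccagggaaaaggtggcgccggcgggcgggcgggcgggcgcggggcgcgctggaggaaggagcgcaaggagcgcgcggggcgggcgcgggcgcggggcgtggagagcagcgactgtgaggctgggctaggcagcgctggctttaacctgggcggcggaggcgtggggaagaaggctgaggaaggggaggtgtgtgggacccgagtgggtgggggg
The Scnn1b window held 1 half-site match, from -132 to -127 counted back from the start, and no SMAD box. The Cftr window held no match and was made up of G and C for 76.4% of its bases, against 60.8% for Scnn1b. A match to AGGTCA was found in 4607, and to CAGAC in 42.2%, of 32851 promoter windows of the same length. The bases just after the start used lie in 1 of 3 GENCODE transcripts of Scnn1b and 3 of 6 of Cftr. Other transcripts may start elsewhere, and a match is a description of letters only.

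In the calcium pathway, the entry channel and the small calbindin showed the widest range between libraries. Trpv6, the calcium entry channel, stood at 25.8 and 20.7 FPKM in the libraries labelled Cre, against 5.09 and 57.6 FPKM in those labelled floxed. S100g, which encodes calbindin-D9k, stood at 58.4 and 55.1 FPKM in the libraries labelled Cre, against 33.3 and 288.7 FPKM in those labelled floxed. For both genes the first floxed library was the lowest of the 4 and the second the highest, with both libraries labelled Cre between them.

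The gap inside the floxed pair was large beside that of other genes. The second floxed library had 11.3 times the FPKM of the first for Trpv6 and 8.67 times for S100g. On the log2(CPM + 1) scale, a gap at least as large as that of Trpv6 was found in 0.303% of all genes tested and one as large as that of S100g in 0.54%. The order seen for both (the first floxed library, then both libraries labelled Cre, then the second floxed library) held for 11.7% of all genes tested. Inside the Cre pair the second library had 0.805 times the FPKM of the first for Trpv6 and 0.943 times for S100g.

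The comparison of groups for these genes was accordingly undecided. Trpv6 had a log2 fold change of -0.47 ± 1.03 (SE; edgeR adjusted p 0.855), S100g of -1.54 ± 0.96 (adjusted p 0.518). Without the first floxed library they were -1.36 and -2.40, and without the second they turned positive, at 2.23 and 0.81. In these fits the lone floxed library was assumed to vary like the Cre pair, so effect sizes alone are given. The direction of both genes thus depended on which floxed library was kept.

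The S100g to Trpv6 ratio separated the groups, and inside the floxed pair, though not inside the Cre pair, it varied less than either gene. It was 2.27 and 2.65 in the libraries labelled Cre, against 6.54 and 5.02 in those labelled floxed. The ratio was formed after the values were seen and carries no test.

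Trpv6 (ENSMUSG00000029868) lies on chromosome 6 from 41620624 to 41636405, and S100g (ENSMUSG00000040808) on chromosome X from 162961992 to 162964599, both on the minus strand, with 0% of exon bases shared with other genes. S100g has only 480 merged exon bases and its FPKM values came from 556 and 461 counts in the libraries labelled Cre, against 367 and 2521 in those labelled floxed. The sequences before their starts are given because these genes ranked the 4 libraries in the same order. They cover chrX:162964600-162964849 and chr6:41636406-41636655 on GRCm38.p6 from RefSeq, read 5′ to 3′ on the minus strand, with capitals as above.
S100g: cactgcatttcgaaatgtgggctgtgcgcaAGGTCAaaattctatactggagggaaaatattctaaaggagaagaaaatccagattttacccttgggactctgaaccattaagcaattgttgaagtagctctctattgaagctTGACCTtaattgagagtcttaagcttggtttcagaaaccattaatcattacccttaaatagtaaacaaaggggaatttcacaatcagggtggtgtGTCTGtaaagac
Trpv6: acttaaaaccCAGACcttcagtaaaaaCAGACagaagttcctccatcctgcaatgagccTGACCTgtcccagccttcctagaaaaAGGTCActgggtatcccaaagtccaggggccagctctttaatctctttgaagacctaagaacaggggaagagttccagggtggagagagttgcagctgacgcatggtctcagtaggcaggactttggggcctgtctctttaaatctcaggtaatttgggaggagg
Both windows held a half-site match on each strand, from -220 to -215 and from -107 to -102 before S100g, and from -191 to -186 and from -165 to -160 before Trpv6. Of 32851 windows, 0.606% held a match on each strand. Both also held the SMAD box, 1 match before S100g and 2 before Trpv6. The full estrogen response element GGTCANNNTGACC was found in neither, nor in the other windows of these genes, and in 0.0639% of all windows. Likewise 0 windows of these genes held the element of progesterone, glucocorticoid and mineralocorticoid receptors (GNACANNNTGTNC, in 0.387% of all windows), the vitamin D element (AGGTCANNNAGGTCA, in 0.00609%) or the TATA box (TATAAA, in 12.4%); all motifs were searched on both strands, and AGGTCA is part of the vitamin D element and shares GGTCA with the estrogen element. RefSeq windows were found for 6 of the 8 genes, with 2 for Atp2b1, and Scnn1a and Calb1 had none. The bases just after the start used lie in 1 of 3 GENCODE transcripts of Trpv6 and in the only 1 of S100g.

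Calb1, which encodes the larger calbindin, differed between groups by little but evenly. It stood at 23.4 and 21.4 FPKM in the libraries labelled Cre, against 38.1 and 33.8 FPKM in those labelled floxed. Each pair was tight and the groups did not overlap. Calb1 averaged 22.4 ± 1.39 FPKM in the libraries labelled Cre and 35.9 ± 3.03 FPKM in those labelled floxed (SD, n = 2 each). The log2 fold change was -0.68 ± 0.21 (SE; edgeR adjusted p 0.272) and ranged from -0.75 to -0.62 in the 12 other settings. It did not pass in any setting that kept all libraries. Without the first floxed library it was -0.64 and without the second -0.72, in fits where the lone floxed library was assumed to vary like the Cre pair. Calb1 (ENSMUSG00000028222) is at 15881264 to 15908064 of chromosome 4, plus strand, and 0% of its exon bases are shared.

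Atp2b1, the pump that moves calcium out of the cell, had the smallest log2 fold change of these 4 calcium genes. It stood at 13.2 and 14.2 FPKM in the libraries labelled Cre, against 21.3 and 11.3 FPKM in those labelled floxed. Both libraries labelled Cre lay between the floxed libraries, with the first floxed library the highest, the reverse of the order for Trpv6 and S100g. The log2 fold change was -0.23 ± 0.34 (SE; edgeR adjusted p 0.772), 0.23 without the first floxed library and -0.60 without the second. Atp2b1 (ENSMUSG00000019943) is at 98914406 to 99026143 of chromosome 10, plus strand.

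Set side by side per length, the calbindins changed rank between libraries. The ratio of S100g to Calb1 was 2.50 and 2.57 in the libraries labelled Cre, against 0.875 and 8.54 in those labelled floxed. Trpv6 relative to Atp2b1 was 1.95 and 1.46 in the libraries labelled Cre, against 0.239 and 5.11 in those labelled floxed. In both ratios the libraries labelled Cre were close to each other and between the floxed libraries.

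**Figure D3:**
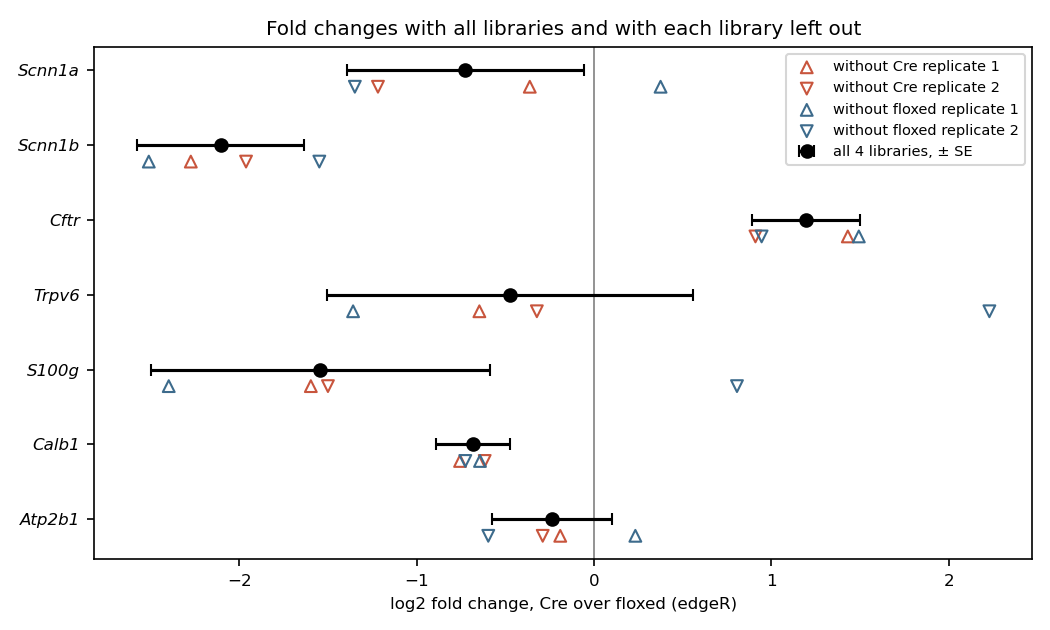
Log2 fold change (libraries labelled Cre over those labelled floxed, edgeR) of the 7 tested genes, with all 4 libraries (black points, bars are SE) and with each library left out (open triangles). Scnn1b, Cftr and Calb1 keep their side of 0, while Trpv6 and S100g cross to 2.23 and 0.81 without the second floxed library. For Scnn1b, Cftr and Calb1 this was bound to hold, since their groups do not overlap.

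Since these genes were chosen for their part in epithelial transport, their levels were also set against epithelial RNA. How much of the RNA of each gene came from epithelium was not tested. The 15 epithelial markers summed to 1448 and 1250 FPKM in the libraries labelled Cre, against 1100 and 1790 FPKM in those labelled floxed, so the groups overlapped. Of these markers 0 had an unadjusted p below 0.05 and a higher value, and 3 (Cldn3, Cldn4 and Wnt7a) had one and a lower value, with a median log2 fold change of 0.07. Over all genes tested, 7.3% were higher at that p and 6.58% lower. On the scale of log2 of a gene's FPKM over that sum, the libraries labelled Cre minus those labelled floxed gave -1.97 for Scnn1b, 1.26 for Cftr and -0.62 for Calb1. In these 3 genes the groups did not overlap. The same difference was -0.48 for Scnn1a, 0.49 for Trpv6, -0.73 for S100g and -0.11 for Atp2b1, with groups that overlapped. For Calb1 the groups lay close, at -5.87 in the second library labelled Cre against -5.73 in the second floxed library. The share of all genes without overlap on this scale was not computed. By CPM it was 24.7% with the libraries labelled Cre higher and 23.6% with them lower. Without the first floxed library the difference was -2.06 for Scnn1b, 1.93 for Cftr and -0.18 for Calb1, and without the second it was -1.89, 0.59 and -1.06. The other 4 genes changed sign with the floxed library left out: without the first and without the second, Scnn1a gave 0.78 and -1.74, Trpv6 -0.90 and 1.89, S100g -1.94 and 0.48, and Atp2b1 0.70 and -0.93. Without the first library labelled Cre, Scnn1a (0.06) and Atp2b1 (0.05) were also above 0.

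Markers of neighbouring tissues differed between the groups as well. The counts below stand beside 7.3% of all genes tested that were higher at an unadjusted p under 0.05 and 6.58% that were lower. The 11 oviduct and ovary markers listed summed to 141 and 351 FPKM in the libraries labelled Cre, against 78.4 and 98.4 FPKM in those labelled floxed, with 4 of 9 tested (Foxj1, Dynlrb2, Star and Hsd3b1) higher at an unadjusted p under 0.05. Most of the difference between these sums came from Ovgp1, the oviduct-specific glycoprotein, at 56.0 and 243 FPKM in the libraries labelled Cre, against 0.489 and 23.4 FPKM in those labelled floxed (unadjusted p 0.0889, edgeR). Sox17, a transcription factor of the list, ran the other way, at 32.2 and 31.1 FPKM in the libraries labelled Cre, against 48.2 and 42.3 FPKM in those labelled floxed. It was the highest gene of the list in both floxed libraries. Pax8 also had a negative log2 fold change (-0.44), with groups that overlapped. How far the floxed sums stand for oviduct or ovary tissue was not tested. Hsd3b1 was at 0 counts in both floxed libraries. Foxj1 and Hsd3b1 passed the filter through the libraries labelled Cre alone, and Dynlrb2 through the second of them alone. The second library labelled Cre, the highest for this list, was also the highest for Cftr, and the part of such tissue in the Cftr result was not tested. Smooth muscle markers summed to 1495 and 1191 FPKM in the libraries labelled Cre, against 809 and 663 FPKM in those labelled floxed, with 4 of 8 (Smtn, Lmod1, Myh11 and Actg2) higher. The 6 mesothelium markers summed to 66.8 and 42.6 FPKM in the libraries labelled Cre, against 36.7 and 20.8 FPKM in those labelled floxed, with 5 higher (Upk3b, Krt5, Msln, Bnc1 and Lrrn4), of which Bnc1 passed the filter through the libraries labelled Cre alone and Krt5 through the first of them alone. Krt5 had 418 and 9 counts in the libraries labelled Cre, against 2 and 0 in those labelled floxed. Stromal markers summed to 1140 and 1183 FPKM in the libraries labelled Cre, against 759 and 1000.1 FPKM in those labelled floxed, with 1 of 10 higher (Col6a3) and 1 lower (Hand2). Leukocyte markers summed to 60.5 and 62.5 FPKM in the libraries labelled Cre, against 127 and 79.7 FPKM in those labelled floxed, with 2 of 6 tested lower (Cd68 and Nkg7). The part of these cells in the results for the transport genes was not tested.

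**Figure D4:**
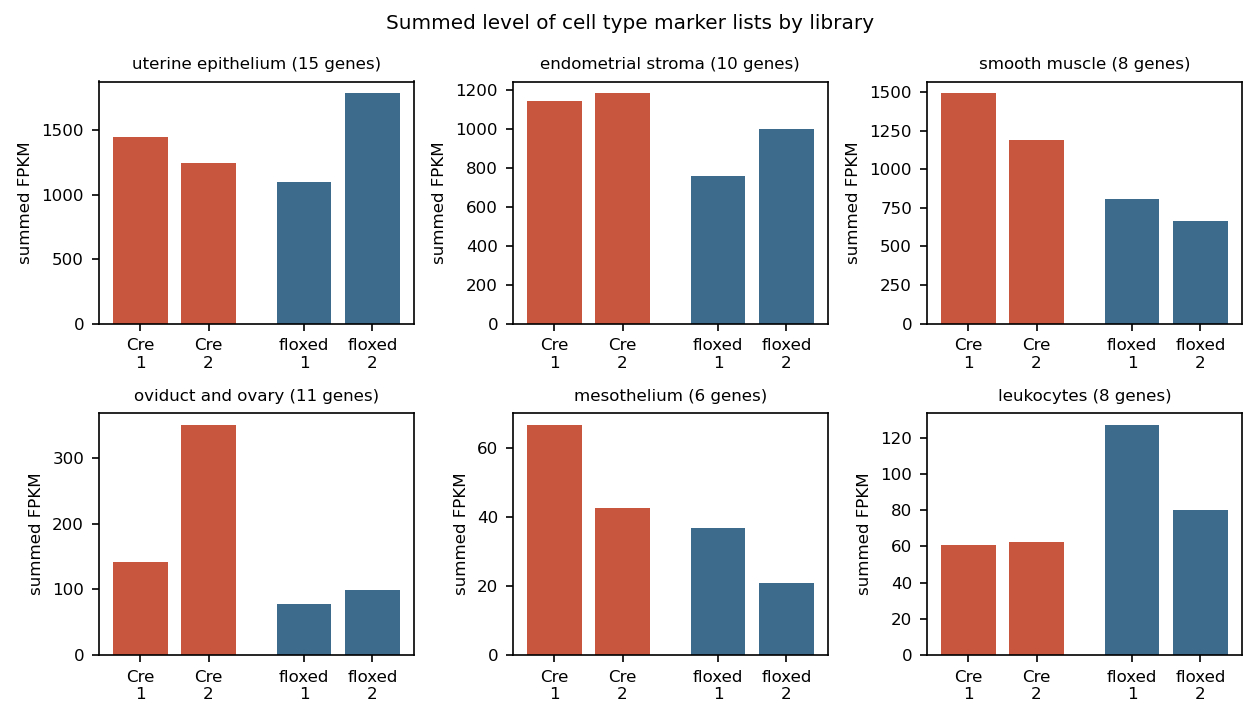
Summed FPKM of 6 lists of cell type markers in each library, with bars from 0 and the libraries labelled Cre on the left of each panel. The epithelial sums of the groups overlap, the stromal, smooth muscle, oviduct and ovary, and mesothelium sums are higher in both libraries labelled Cre, and the leukocyte sums are lower in both.

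Of 14 other genes of sodium transport tested, 1 was higher and 0 lower by unadjusted p below 0.05, with a median log2 fold change of 0.24. The groups did not overlap in 6 of these 14 genes, with the libraries labelled Cre higher in 5 and lower in 1. Over all genes tested, 7.3% were higher and 6.58% lower at that p, and 24.7% and 23.6% did not overlap in these directions. The gene at that p was Hsd11b2, which inactivates glucocorticoids and so leaves the mineralocorticoid receptor to aldosterone. It stood at 222 and 211 FPKM in the libraries labelled Cre, against 75.6 and 57.4 FPKM in those labelled floxed (log2 fold change 1.71 ± 0.25, SE; edgeR adjusted p 0.106).

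Among chloride and bicarbonate transporters, 0 of 19 tested were higher and 2 lower by unadjusted p below 0.05, with a median log2 fold change of 0.05. The shares over all genes tested were 7.3% higher and 6.58% lower. Both lower genes, the anion exchanger Slc26a4 (pendrin) and its relative Slc26a9, passed the filter on low values through the floxed libraries alone, so their difference had to follow. Mainly the second floxed library carried Slc26a4 (3.34 FPKM, against 0.869 in the first). Slc26a9 was carried mainly by the first (3.74 FPKM, against 1.05 in the second). Slc26a4 had 12 and 9 counts in the libraries labelled Cre, against 62 and 189 in those labelled floxed, with an edgeR adjusted p of 0.195. Slc26a9 had 19 and 46 counts in the libraries labelled Cre, against 449 and 100 in those labelled floxed, with an edgeR adjusted p of 0.255. The 2 genes of highest level were Clca1, a secreted regulator of calcium-activated chloride channels, and Car2, a carbonic anhydrase. Clca1 stood at 592 and 400.4 FPKM in the libraries labelled Cre, against 7.06 and 433 FPKM in those labelled floxed. Car2 stood at 161 and 162 FPKM in the libraries labelled Cre, against 39.6 and 347 FPKM in those labelled floxed, the order of libraries seen for S100g and Trpv6.

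Of the other calcium transport genes, 17 of 25 were tested, with a median log2 fold change of 0.28. At an unadjusted p below 0.05, 1 of them was higher and 0 lower, against 7.3% and 6.58% of all genes tested. The 1 was Trpv4, a calcium-permeable channel related to TRPV6, at 6.84 and 5.67 FPKM in the libraries labelled Cre, against 2.68 and 3.26 FPKM in those labelled floxed (log2 fold change 1.07 ± 0.28, SE; edgeR adjusted p 0.227). Atp2a2 and Atp2a3, pumps that fill the calcium store of the endoplasmic reticulum, were the most abundant. Atp2a2 averaged 79.3 ± 4.46 FPKM in the libraries labelled Cre and 57.2 ± 26.7 FPKM in those labelled floxed (SD, n = 2 each). Atp2a3 averaged 28.5 ± 1.48 FPKM in the libraries labelled Cre and 28.8 ± 5.13 FPKM in those labelled floxed.

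In the S100 family, to which S100g belongs, the median log2 fold change of 8 tested genes was -0.38. By that p, 1 of them was higher and 0 lower, against 7.3% and 6.58% of all genes tested. The 1 was S100b, a protein of glia and other cells, and it passed the filter through a single library: it had 15 and 120 counts in the libraries labelled Cre, against 6 and 8 in those labelled floxed. S100a11 and S100a10 were the most abundant members. S100a11 averaged 419 ± 32.8 FPKM in the libraries labelled Cre and 627 ± 43.8 FPKM in those labelled floxed (SD, n = 2 each; edgeR adjusted p 0.378). S100a10 averaged 139 ± 23.2 FPKM in the libraries labelled Cre and 196 ± 1.04 FPKM in those labelled floxed (edgeR adjusted p 0.437). Neither showed the gap inside the floxed pair that S100g did.

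Genes known to respond to estrogen in the mouse uterus were read beside S100g. Of 13 tested, 2 were higher and 2 lower by unadjusted p below 0.05, with a median log2 fold change of 1.06. The log2 fold change was positive in 11 of them, and in 6351 of all 13513 genes tested. The groups did not overlap in 9 with the libraries labelled Cre higher, and in 2 with them lower. Over all genes tested, 7.3% were higher and 6.58% lower at that p, and 24.7% and 23.6% did not overlap in these directions. Greb1, a cofactor of the estrogen receptor, stood at 17.4 and 19.1 FPKM in the libraries labelled Cre, against 1.41 and 3.81 FPKM in those labelled floxed. Aqp5, a water channel, stood at 25.0 and 18.4 FPKM in the libraries labelled Cre, against 2.28 and 7.53 FPKM in those labelled floxed. The lower ones, Sprr2b and Sprr2f, are close paralogs whose reads may be shared, and Sprr2b passed the filter through the floxed libraries alone. Sprr2b stood at 0.257 and 0.146 FPKM in the libraries labelled Cre, against 33.1 and 98.8 FPKM in those labelled floxed. Its log2 fold change was -8.30 ± 0.87 (SE; edgeR adjusted p 0.0919), the largest in size among the 13 tested. Sprr2f stood at 73.6 and 51.9 FPKM in the libraries labelled Cre, against 167 and 470 FPKM in those labelled floxed, and its log2 fold change was -2.37 ± 0.57 (SE; edgeR adjusted p 0.206). Ltf, lactoferrin, and C3, complement component 3, had the highest levels of the list. Ltf stood at 1068 and 643 FPKM in the libraries labelled Cre, against 203 and 603 FPKM in those labelled floxed. C3 stood at 746 and 537 FPKM in the libraries labelled Cre, against 81.1 and 511 FPKM in those labelled floxed. In both genes the first floxed library was far below the other 3 libraries.

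**Figure D5:**
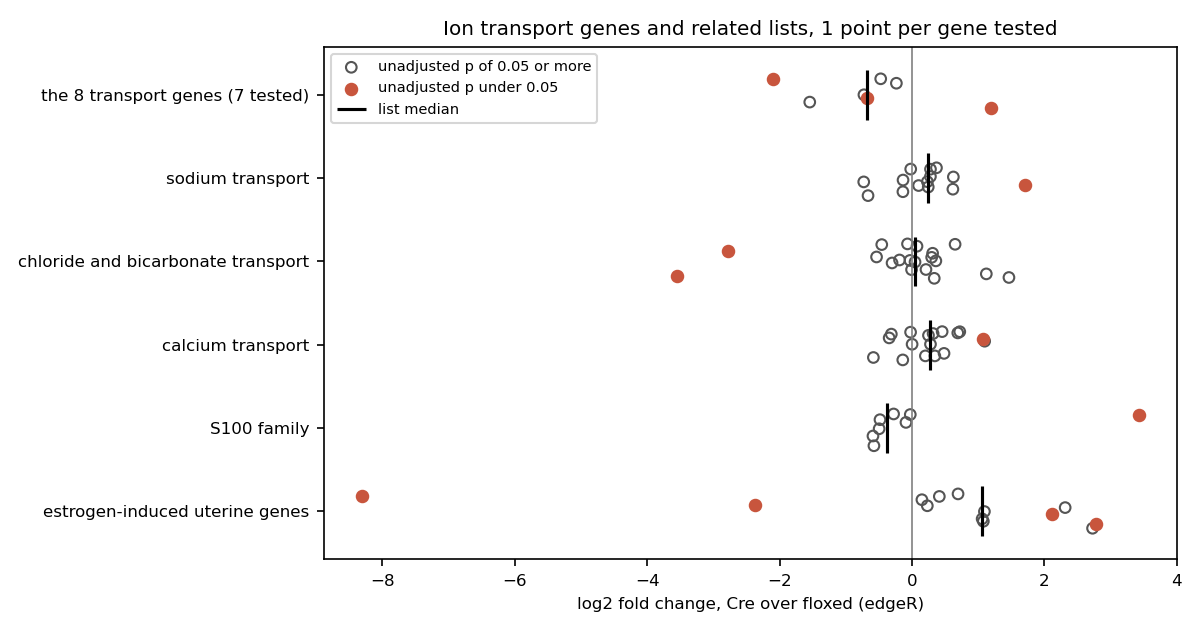
Log2 fold change (libraries labelled Cre over those labelled floxed, edgeR) of each tested gene in the ion transport set and 5 related lists, with points jittered vertically; filled points have an unadjusted p under 0.05 and black lines are list medians. The medians run from -0.68 for the ion transport set to 1.06 for estrogen-induced genes, and no gene shown passed an adjusted p of 0.05.

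Likeness of pattern was measured as the root mean square difference of log2(CPM + 1), centred on each gene's mean over the 4 libraries, among genes tested. The genes most like S100g, the transport gene of highest mean FPKM, were Nfkbiz (0.0945), Cd14 (0.110) and Zc3h12a (0.138), and Trpv6 ranked 145 (0.621). Cd14 stood at 51.1 and 52.8 FPKM in the libraries labelled Cre, against 33.0 and 227 FPKM in those labelled floxed. The genes most like Scnn1b, the one of smallest p, were Edn3 (0.0687), Ovol1 (0.0972) and Pamr1 (0.107). Pamr1 stood at 8.77 and 8.52 FPKM in the libraries labelled Cre, against 19.4 and 39.5 FPKM in those labelled floxed. With 4 libraries many genes share a pattern, and the ranks are descriptions.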

How the data were processed

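The authors deposited 1 table per library holding raw counts, as whole numbers per gene, and FPKM, per the file headers. HISAT2, HTSeq 0.13.5 and GRCm38 are named in the submitters' processing notes; the strand setting is not given in the sources used here. The deposited FPKM equal counts per gene length and total count: the gene lengths they imply matched between libraries to 1e-06 for 23463 of 23463 genes with 2 or more values. Counts were tested with edgeR 4.0.16 quasi-likelihood fits (R 4.3.3), TMM scaling and group as the only term, on the 13513 genes whose FPKM averaged 1 or more (15032 were left out); p-values, two-sided, were Benjamini-Hochberg adjusted over these. SE is the log2 fold change over the root of the F statistic. CPM uses TMM-scaled library sizes, except in the floor of 3 counts, which uses total counts. Alternatives were other filters, scalings, DESeq2 1.42.0, limma 3.58.1, a replicate block and each library left out. The fit was tested on simulated data. Coordinates and exon overlaps are from GENCODE mouse release 21.

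The genes and lists were chosen with earlier results of these data known, and the motifs and ratios after the values were seen. Of each related list, genes at an unadjusted p under 0.05 and the 2 of highest mean FPKM were named; of genes of like pattern, the 3 nearest, predicted genes left out. 1 gene that this rule names is not reported here. Other genes named were chosen after their values were seen: Smad7, Epcam, the cell type markers and, in the closing section, Fxyd4, Lcn2 and Padi1.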

Additional observations from a re-analysis of the deposited data

How the results depend on the processing

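Scnn1b, Cftr and Calb1 kept their direction in every setting tried, and the other 4 tested genes did not. The groups did not overlap in these 3 genes, so leaving out 1 library could not turn their direction. No overlap was seen in 24.7% of all genes tested with the libraries labelled Cre higher and in 23.6% with them lower. The share of all genes that kept their direction in every setting was not computed. With no filter on low genes Scnn1b (-2.16), Cftr (1.14) and S100g (-1.60) passed, and with DESeq2 Scnn1b (-2.11) and Cftr (1.20). Trpv6 turned positive with limma on log2(FPKM + 1) (0.35), limma on log2(FPKM + 0.1) (0.42) and the replicate block (0.42). Leaving out 1 library at a time, log2 fold changes ran from -1.35 to 0.38 for Scnn1a, -2.51 to -1.55 for Scnn1b, 0.91 to 1.49 for Cftr, -1.36 to 2.23 for Trpv6, -2.40 to 0.81 for S100g, -0.75 to -0.62 for Calb1 and -0.60 to 0.23 for Atp2b1. Genes called over all genes numbered 0, but 1928 with no filter, 1 with a filter of 5, 843 with DESeq2, 4 with limma on log2(FPKM + 0.1) and 0 to 4249 with 1 library left out. Genes at an unadjusted p under 0.05 numbered 1876, 4198 with no filter, 1061 with a filter of 5, which tests fewer genes, and 618 to 5634 with 1 library left out. Transport genes at that p numbered 3, 5 with no filter and 1 to 7 with 1 library left out, and those of the 5 related lists 9, 22 with no filter and 6 to 36. The transport genes' median of -0.68 was -0.42 with a filter of 5, which leaves out both subunits tested, -0.38 and -0.52 with limma at pseudocounts of 1 and 0.1, -0.55 with the replicate block, and -0.65 to -0.60 with 1 library left out. The cause of the other changes was not tested.

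Replicate numbers are shared by the groups, but deviations of same-numbered libraries did not go together (correlation -0.0829), so the numbers are not taken as pairs. With the replicate block 0 genes were called and 1525 had an unadjusted p under 0.05. The Scnn1g ratio of 0.0820 ran from 0 to 0.212 with 1 library left out. It was 0 without the second library labelled Cre, where no count remained in that group, and 0.0449 without the first floxed library. The share of Scnn1a in the summed subunits, 21.5 percentage points higher in the libraries labelled Cre, was 2.65 to 40.3 points higher with 1 library left out, and that of Scnn1b, at -18.9 points, ran from -35.8 to -2.08. Depth limited Scnn1g most, with at most 21 counts in a library.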

Other observations

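In 4 abundant genes of the related lists the first floxed library was the lowest, as for S100g and Trpv6. The second floxed library was the highest for Fxyd4 and Lcn2 and lay below both libraries labelled Cre for Padi1 and between them for Clca1. These genes were chosen after their values were seen. Clca1 had 61.4 times the FPKM in the second floxed library that it had in the first. Fxyd4, a small membrane protein, stood at 65.6 and 52.6 FPKM in the libraries labelled Cre, against 7.75 and 67.1 FPKM in those labelled floxed. Lcn2, an iron-binding secreted protein induced by estrogen in the uterus, stood at 424 and 331 FPKM in the libraries labelled Cre, against 48.2 and 576 FPKM in those labelled floxed. Padi1, a peptidylarginine deiminase, stood at 180 and 136 FPKM in the libraries labelled Cre, against 3.04 and 58.6 FPKM in those labelled floxed.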
